A study of Mus musculus with 12 samples.

Results

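The genes described here are 10 mouse genes of the integrated stress response, named Atf4, Ddit3, Atf3, Trib3, Asns, Psat1, Phgdh, Sesn2, Chac1 and Nupr1. They were chosen by symbol as a list of Atf4 pathway genes, by a rule that uses no measured value but that was set with earlier results of these data known, and are 10 of the 49315 genes counted. All 10 were found in the count tables and all 10 had enough reads to be among the 16637 genes tested. RNA-seq libraries were made from CD31+ endothelial cells, the cells that line blood vessels, which were isolated by flow sorting from mouse forebrain at E15.5. The study compared 3 genotypes with 4 embryos each, 1 embryo per library. Wild-type embryos (WT) carry 2 intact copies of Gpr124, which encodes an adhesion G-protein-coupled receptor and WNT7 co-activator of brain endothelium. Gpr124deltaC/deltaC embryos, written Gpr124ΔC/ΔC below, are homozygous for a knock-in in which a V5 tag and a stop codon remove the intracellular domain of the receptor. Gpr124-/- embryos are homozygous for a null allele. Both alleles are present in every cell of the embryo, so the endothelium is not the only tissue changed, and no Cre driver or drug was used for these libraries. Cells were gated as CD31+ and negative for CD140b, CD45 and 7-AAD, a gate that removes pericytes, leukocytes and dead cells.

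The integrated stress response is the program by which cells meet amino acid shortage, unfolded proteins in the endoplasmic reticulum, heme deficiency or viral RNA. Sensor kinases phosphorylate the initiation factor eIF2, which lowers most protein synthesis but favours translation of ATF4, and ATF4 with its bZIP partners then raises genes for amino acid synthesis, amino acid uptake and, in prolonged stress, cell death. ATF4 is controlled in large part at translation, so its mRNA, the quantity measured here, is only one layer of its activity. In brain endothelium the same amino acid carriers that ATF4 can raise also serve the blood-brain barrier.

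ATF4 and its C/EBP partners bind a composite site, the C/EBP-ATF response element (CARE), and the promoters of the 10 genes were therefore searched for it. The search covered 250 bases before to 50 bases after each RefSeq start on GRCm38.p6, with 11 promoters for the 10 genes because Psat1 has 2 starts. The letters searched on both strands were TGATGNAA for CARE and TGACGTCA, the core of the cAMP response element (CRE), and neither motif contains the other. CARE letters were found in 5 of the 10 genes, and 3.97% of the 32851 promoters in the table hold them. CRE letters were found in 0 of the 10 genes, against 1.79% of all promoters. The 5 matches are shown because they are the letters through which the family is known to be controlled, with the match in capitals and each stretch read 5′ to 3′ along the gene's own strand. The Atf3 stretch lies at chr1:191183425-191183454 (minus strand), that of Trib3 at chr2:152344028-152344057 (minus), that of Asns at chr6:7693214-7693243 (minus), that of Chac1 at chr2:119351038-119351067 (plus) and that of Nupr1 at chr7:126625562-126625591 (minus).
Atf3: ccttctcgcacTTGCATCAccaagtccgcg
Trib3: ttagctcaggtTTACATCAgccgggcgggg
Asns: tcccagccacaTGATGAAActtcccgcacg
Chac1: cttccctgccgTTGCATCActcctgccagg
Nupr1: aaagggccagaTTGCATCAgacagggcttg
The match in Asns reads on the gene's own strand, whereas the other 4 read on the opposite strand. Atf3, Chac1 and Nupr1 share the same 8 letters, TTGCATCA. Counted from the start base, the match began at -110 in Atf3 and in Nupr1, at -193 in Chac1, at -23 in Asns and at 14 in Trib3. Sites further away, such as those known in introns, lie outside the window, and the promoters of Atf4, Ddit3, Psat1, Phgdh and Sesn2 held neither motif in it.

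Library totals on genes lay between 13877572 and 22551163 reads, fewest in Gpr124ΔC/ΔC (13877572 to 16033001). The targeted gene, listed as Adgra2, was measured at 38.6 ± 10.4 TPM (reads per unit of gene length, as a share of the library; SD, n = 4) in WT, 43.4 ± 13.7 in Gpr124ΔC/ΔC and 4.86 ± 0.988 in Gpr124-/-. One non-coding gene, Gm23935, took 12.5% of all TPM in WT embryo JE6 and 14.1% in Gpr124ΔC/ΔC embryo JE3, against 1.22% to 3.04% in the other 10 libraries, which lowers the TPM of every other gene in those libraries. The labels start with a letter whose meaning they do not give. J holds 2 WT and 2 Gpr124ΔC/ΔC embryos, and K 1 WT and 1 Gpr124-/- embryo. L holds 1 WT and 2 Gpr124ΔC/ΔC embryos, and M 3 Gpr124-/- embryos. Letter and genotype are therefore partly confounded, and no letter holds both mutants. The paper describes a separate heterozygous intercross for each mutant allele, so the mutants also differ in their cross. Endothelial markers were present in every library, with a summed level over 10 genes of 12084 to 15774 TPM in WT, 7419 to 12547 in Gpr124ΔC/ΔC and 6611 to 7919 in Gpr124-/-. Of the 10 markers, 3 passed as higher and 3 as lower in Gpr124-/- against WT, and 1 each way in Gpr124ΔC/ΔC. Most of that sum in WT was Cldn5, itself lower in both mutants (log2 fold change -2.12 in Gpr124-/-), whereas Pecam1, the gene of CD31, was higher in Gpr124-/- by 0.54 (Benjamini-Hochberg adjusted p = 6.6e-07 and 0.00778 in edgeR's quasi-likelihood test). Markers of red blood cells moved with the null genotype. The summed level of 7 erythroid genes was 17816 to 54226 TPM in Gpr124-/-, 7011 to 11767 in WT and 5446 to 9895 in Gpr124ΔC/ΔC, and 5 of the 7 rose against WT. The 4 platelet genes all rose (494 to 1400 against 230 to 453 TPM), and 2 of 6 neuronal genes rose (summed level 135 to 187 against 57.0 to 133 TPM). Pericyte sums were 27.6 to 40.1 TPM in Gpr124-/-, 10.01 to 31.0 in Gpr124ΔC/ΔC and 19.3 to 41.1 in WT, neural progenitor sums 21.4 to 43.0 TPM in all libraries, fibroblast sums 9.03 to 68.5 and macrophage sums 0.325 to 7.92. No marker was at 0 in all 4 libraries of a genotype. The part of these other cells in the results below was not tested.

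In Gpr124-/- endothelium, 4 of the 10 genes rose against WT (Atf4, Ddit3, Trib3 and Phgdh) and 1 fell (Atf3), while the other 5 did not pass the test. The rises lay between 1.54-fold for Atf4 and 2.36-fold for Trib3. In Gpr124ΔC/ΔC none of the 10 passed, and between the mutants Atf4, Ddit3 and Asns were higher in Gpr124-/-. A gene passed at an adjusted p under 0.05 in edgeR's quasi-likelihood test, fitted on the counts of all 12 libraries and adjusted by Benjamini-Hochberg over the 16637 genes tested. Of all tested genes 10.5% passed as higher and 9.32% as lower in Gpr124-/- against WT, so the 4 higher genes are to be read beside that share. With the study's further threshold of an absolute log2 fold change above 1, only Ddit3 and Trib3 of the 10 were called higher, against 5.67% of all tested genes. The median log2 fold change of the 10 genes was 0.57 in Gpr124-/- against WT, beside -0.01 over all tested genes. With the label letter added to the model the median of the 10 genes was 0.19. In bulk RNA, fewer cells of a type and less RNA per cell cannot be told apart.

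**Figure D1:**
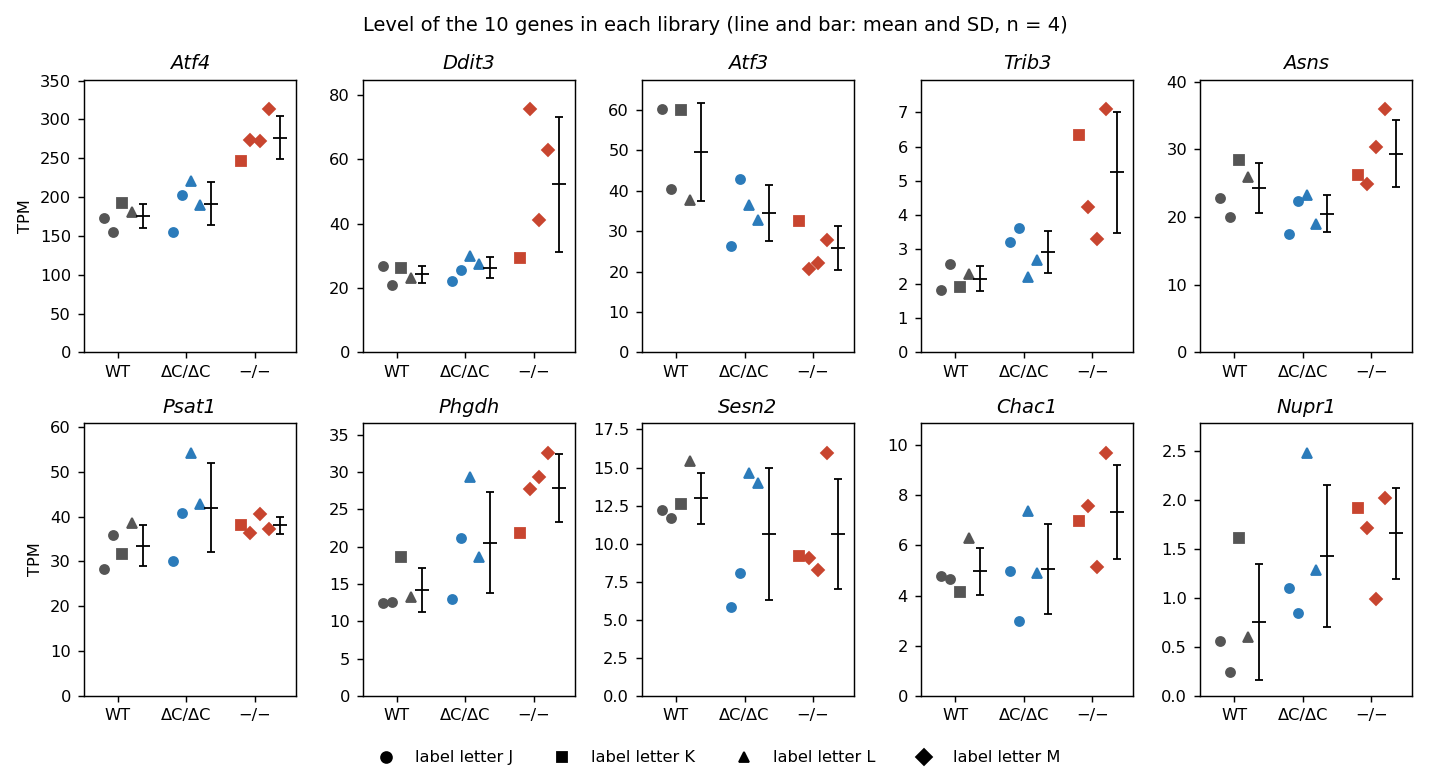
Level of each of the 10 genes in TPM (vertical axes, from 0) in the 4 libraries of WT, Gpr124ΔC/ΔC and Gpr124-/- (horizontal axes). Each point is 1 embryo, its shape gives the first letter of its label, and the line and bar beside each group are the mean and SD. The 4 Gpr124-/- points lie above every WT point for Atf4, Ddit3, Trib3 and Phgdh and below every WT point for Atf3.

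In WT endothelium the levels of the 10 genes, which TPM makes comparable across gene lengths, spread from 175 TPM for Atf4 to 0.757 TPM for Nupr1. Atf4 was expressed above 93.9% of the tested genes. Next came Atf3 (49.6 ± 12.2 TPM; SD, n = 4), Psat1 (33.5 ± 4.54), Asns (24.3 ± 3.64), Ddit3 (24.3 ± 2.71), Phgdh (14.2 ± 2.94), Sesn2 (13.0 ± 1.66), Chac1 (4.98 ± 0.935), Trib3 (2.15 ± 0.357) and Nupr1. The ranges of neighbouring genes overlapped from Atf3 down to Ddit3 and between Phgdh and Sesn2. Atf4 stood apart above the others, and Chac1, Trib3 and Nupr1 did not overlap with their neighbours.

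Atf4 (chr15:80255184-80257541, plus strand, GRCm38) encodes the effector transcription factor of the response. Its level was 173, 155, 192 and 181 TPM in the WT embryos, 154, 202, 220 and 190 TPM in Gpr124ΔC/ΔC and 247, 274, 272 and 313 TPM in Gpr124-/-. Every Gpr124-/- library lay above every library of the other genotypes, and WT and Gpr124ΔC/ΔC overlapped. Against WT the log2 fold change in Gpr124-/- was 0.62 (standard error 0.10, adjusted p = 0.000572, edgeR). Against Gpr124ΔC/ΔC it was 0.58 (standard error 0.10, adjusted p = 0.0032, edgeR), and Gpr124ΔC/ΔC against WT gave 0.04 (adjusted p = 0.941). The rise against WT stayed past the threshold with any single library left out (0.55 to 0.69), but not once the label letter was added to the model (0.32, adjusted p = 0.45, edgeR), where the difference between the mutants was 0.25 (adjusted p = 0.882). Within letter K, the only letter with both genotypes, the Gpr124-/- embryo had 1.29 times the Atf4 level of the WT embryo, with TPM recomputed without Gm23935.

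Ddit3 (chr10:127290774-127296288, plus strand) encodes CHOP, a transcription factor that ATF4 induces and that is known for driving cell death in prolonged stress. The WT embryos had 26.8, 21.0, 26.1 and 23.2 TPM, the Gpr124ΔC/ΔC embryos 22.2, 25.5, 30.0 and 27.5 TPM, and the Gpr124-/- embryos 29.3, 75.6, 41.1 and 63.0 TPM. The null embryos spread widely, with the lowest, KE4, only just above the highest WT embryo and within the range of Gpr124ΔC/ΔC. The log2 fold change in Gpr124-/- was 1.08 against WT (standard error 0.25, adjusted p = 0.00802, edgeR) and 1.05 against Gpr124ΔC/ΔC (standard error 0.25, adjusted p = 0.0212, edgeR). Within letter K the ratio of the Gpr124-/- to the WT embryo was 1.13. In the same Gpr124-/- embryos the summed erythroid level was 25154, 54226, 17816 and 35392 TPM and the summed platelet level 494, 1400, 992 and 1377 TPM, so the embryo highest in Ddit3 was also highest in both sums, whereas the embryo lowest in Ddit3 was lowest in platelet but not in erythroid genes. Ddit3 overlaps Mars on the opposite strand, a gene with a mean of 1529 counts per library against 351 for Ddit3. Whether counting used strand is not given in the sources used here, so reads of the shared stretch cannot be told apart. Mars itself was at 0.31 on the log2 scale in Gpr124-/- against WT (adjusted p = 0.112, edgeR). The annotation also holds a second gene named Ddit3 on the same strand, which has no counts of its own in the tables.

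Atf3 (chr1:191170296-191218039, minus strand) encodes a bZIP transcription factor that ATF4 can induce but that also answers to other stress signals and to growth factors, and it went the other way. It was measured at 60.2, 40.4, 60.1 and 37.8 TPM in WT, 26.3, 42.9, 36.4 and 32.9 TPM in Gpr124ΔC/ΔC and 32.6, 20.5, 22.2 and 27.9 TPM in Gpr124-/-. All 4 Gpr124-/- libraries lay below all 4 WT libraries, and Gpr124ΔC/ΔC overlapped with both. In Gpr124-/- it fell by 0.98 on the log2 scale against WT (standard error 0.19, adjusted p = 0.00241, edgeR). Gpr124ΔC/ΔC against WT gave -0.60 (standard error 0.19, adjusted p = 0.108, edgeR), which did not pass, although DESeq2 gave an adjusted p of 0.0477. The mutants did not differ beyond the threshold (log2 fold change -0.38, adjusted p = 0.256, edgeR). Within letter K the Gpr124-/- embryo had 0.546 times the WT level, and within letters J and L Gpr124ΔC/ΔC had 0.689 and 0.914 times the WT level.

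Trib3 (chr2:152337422-152344032, minus strand) encodes a pseudokinase that ATF4 and CHOP induce and that restrains ATF4 in turn. Its levels were low, at 1.81, 2.59, 1.91 and 2.29 TPM in WT, 3.21, 3.61, 2.21 and 2.70 TPM in Gpr124ΔC/ΔC and 6.35, 4.23, 3.31 and 7.09 TPM in Gpr124-/-, or 21 to 92 counts per library. The Gpr124-/- embryos lay above all WT embryos and overlapped with Gpr124ΔC/ΔC, which in turn overlapped with WT. The log2 fold change in Gpr124-/- against WT was 1.24 (standard error 0.29, adjusted p = 0.00909, edgeR). Gpr124-/- against Gpr124ΔC/ΔC gave 0.86 (adjusted p = 0.0917, edgeR) and Gpr124ΔC/ΔC against WT 0.38 (adjusted p = 0.691). Within letter K the ratio of Gpr124-/- to WT was 3.34.

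Of the 3 amino acid synthesis genes of the list, 1 passed against WT. This was Phgdh (chr3:98313170-98339990, minus strand), the enzyme of the first step of serine synthesis. It had 12.4, 12.6, 18.6 and 13.2 TPM in WT, 13.0, 21.2, 29.3 and 18.6 TPM in Gpr124ΔC/ΔC and 21.8, 27.7, 29.3 and 32.6 TPM in Gpr124-/-. All Gpr124-/- libraries were above all WT libraries, and Gpr124ΔC/ΔC spread over both. Phgdh rose in Gpr124-/- against WT by 0.94 on the log2 scale (standard error 0.20, adjusted p = 0.0054, edgeR). Against Gpr124ΔC/ΔC the difference was 0.51 (adjusted p = 0.151, edgeR) and that of Gpr124ΔC/ΔC against WT 0.43 (standard error 0.20, adjusted p = 0.363, edgeR). The ratio of Gpr124-/- to WT within letter K was 1.18, and those of Gpr124ΔC/ΔC to WT within letters J and L were 1.35 and 1.81.

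Psat1 (chr19:15904678-15947337, minus strand), the aminotransferase of the next step of serine synthesis, is also induced by ATF4. Its level was 28.2, 35.8, 31.6 and 38.5 TPM in WT, 30.0, 40.8, 54.3 and 42.8 TPM in Gpr124ΔC/ΔC and 38.1, 36.2, 40.6 and 37.1 TPM in Gpr124-/-. The 3 genotypes overlapped, with the highest value in a Gpr124ΔC/ΔC embryo. The log2 fold change was 0.13 in Gpr124-/- (standard error 0.13, adjusted p = 0.545, edgeR) and 0.22 in Gpr124ΔC/ΔC (adjusted p = 0.515).

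Asns (chr6:7675169-7693254, minus strand) encodes asparagine synthetase, a textbook ATF4 target. It was measured at 22.8, 20.1, 28.4 and 25.9 TPM in WT, 17.5, 22.4, 23.2 and 18.9 TPM in Gpr124ΔC/ΔC and 26.2, 24.9, 30.3 and 35.9 TPM in Gpr124-/-. The WT range overlapped with both mutants, whereas every Gpr124-/- library was above every Gpr124ΔC/ΔC library. Gpr124-/- was higher than Gpr124ΔC/ΔC by 0.56 on the log2 scale (standard error 0.14, adjusted p = 0.0249, edgeR). That call was lost in 7 of 21 alternatives. Against WT the log2 fold change was 0.24 in Gpr124-/- (adjusted p = 0.277) and -0.32 in Gpr124ΔC/ΔC (unadjusted p = 0.0382, adjusted p = 0.3, edgeR). Within letter K the ratio of Gpr124-/- to WT was 0.929.

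The remaining 3 genes did not pass in any comparison. Sesn2 (chr4:132492032-132510501, minus strand), a sestrin that senses leucine upstream of mTORC1, had 12.2, 11.7, 12.6 and 15.4 TPM in WT, 5.85, 8.04, 14.7 and 14.0 TPM in Gpr124ΔC/ΔC and 9.16, 9.06, 8.27 and 16.0 TPM in Gpr124-/-. In Gpr124ΔC/ΔC 2 embryos lay below all WT embryos and 2 within their range, whereas in Gpr124-/- 3 lay below all WT embryos and 1 above. The log2 fold change against WT was -0.32 in Gpr124-/- (standard error 0.26, adjusted p = 0.47, edgeR) and -0.39 in Gpr124ΔC/ΔC (standard error 0.27, adjusted p = 0.606). In Gpr124ΔC/ΔC the low embryos were the J embryos, so that the ratio to WT was 0.58 within letter J and 0.926 within letter L. Chac1 (chr2:119351229-119354381, plus strand), which degrades glutathione, had 4.78, 4.67, 4.14 and 6.32 TPM in WT, 4.97, 2.998, 7.37 and 4.90 TPM in Gpr124ΔC/ΔC and 6.97, 7.56, 5.15 and 9.71 TPM in Gpr124-/-. For Chac1, 3 of the 4 Gpr124-/- embryos were above all WT embryos, and the log2 fold change was 0.53 (standard error 0.28, adjusted p = 0.225, edgeR). Nupr1 (chr7:126623249-126630861, minus strand), a small stress-induced chromatin protein, was close to the limit of detection with 4 to 31 counts per library. Its level was 0.562, 0.243, 1.62 and 0.605 TPM in WT, 1.10, 0.849, 2.49 and 1.29 TPM in Gpr124ΔC/ΔC and 1.93, 1.72, 0.989 and 2.02 TPM in Gpr124-/-. Its genotypes overlapped, the log2 fold change in Gpr124-/- was 1.11 (standard error 0.48, adjusted p = 0.136, edgeR), and without WT embryo KE8 it was 1.76 with an adjusted p of 0.0167 (edgeR). Its standard error was larger than that of any other of the 10 genes, and at this depth a difference of this size, close to that of Ddit3, did not pass.

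**Figure D2:**
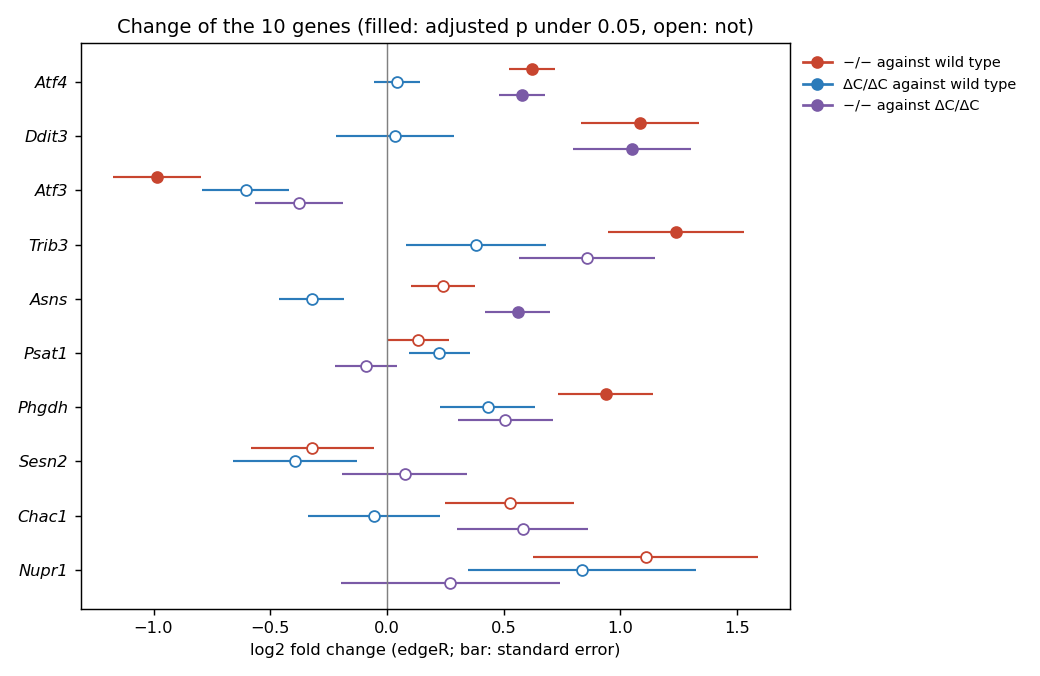
Log2 fold change from edgeR (horizontal axis) of each of the 10 genes (vertical axis) in the 3 genotype comparisons, with its standard error as a bar, from counts of 12 libraries. Filled points passed at an adjusted p under 0.05: Atf4, Ddit3, Trib3, Phgdh and Atf3 in Gpr124-/- against WT, none in Gpr124ΔC/ΔC against WT, and Atf4, Ddit3 and Asns between the mutants.

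Counted over the 10 genes, the libraries of Gpr124-/- did not overlap with WT and were higher for 4 genes, beside 12% of all tested genes, and lower for 1 gene, beside 8.31%. Neither count changed when TPM was recomputed without Gm23935. The median over the 10 genes rests on genes that went both ways, since 8 had a log2 fold change above 0 and 2 (Atf3 and Sesn2) below. With the label letter as a further term in the edgeR model, 0 of the 10 genes passed in Gpr124-/- against WT, with 2 at an unadjusted p under 0.05, and 6.16% of all tested genes did in either direction, against 19.8% without it. In that fit the comparison rests within letters on 1 Gpr124-/- and 1 WT embryo. Its log2 fold changes were 0.32 for Atf4 (adjusted p = 0.45), 0.12 for Ddit3 (0.934), 1.68 for Trib3 (0.138), 0.18 for Phgdh (0.881) and -0.93 for Atf3 (0.114). The difference of Atf3 was of similar size in that fit and that of Trib3 larger, whereas those of Atf4, Ddit3 and Phgdh were smaller. For the 3 Gpr124-/- embryos of letter M, genotype and letter cannot be told apart. With DESeq2, with limma and with only the compared genotypes in the fit, 5 of the 10 genes passed in this comparison.

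In Gpr124ΔC/ΔC against WT, which shares its WT libraries with the comparison above, 0 of the 10 genes passed in edgeR's quasi-likelihood test, beside 4.09% of all tested genes in either direction. Atf3 (-0.60) and Asns (-0.32) had an unadjusted p under 0.05, and DESeq2 passed 1 of the 10, Atf3. The libraries of the 2 genotypes overlapped for all 10 genes, beside 5.66% of tested genes that did not overlap and were higher and 3.19% that were lower. The median log2 fold change of the 10 genes was 0.04, beside 0.01 over all tested genes. For Atf4 and Ddit3 the log2 fold changes were 0.04 and 0.03 with standard errors of 0.10 and 0.25.

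Between the mutants, 3 of the 10 genes were higher in Gpr124-/- than in Gpr124ΔC/ΔC and 0 were lower, beside 4.93% and 3.89% of all tested genes. The libraries did not overlap for Atf4 and Asns, beside 6.08% of tested genes that were higher without overlap and 5.4% that were lower. Atf4 passed at an adjusted p under 0.05 in all alternative fits but that with the letter term, in which 0 of the 10 passed. Ddit3 and Asns lay nearer to the threshold, at adjusted p values of 0.053 and 0.0561 with only the mutants in the fit and of 0.058 and 0.0554 without the libraries high in Gm23935, an alternative chosen after seeing the data. Without Gpr124ΔC/ΔC embryo LE5, 1 of the 10 passed, which was Atf4.

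Genes that act upstream of ATF4 were examined next. Of 12 genes for the eIF2 kinases, eIF2, eIF2B and the eIF2 phosphatase, 0 rose and 1 fell in Gpr124-/- against WT, with a median log2 fold change of -0.05. The shares of 10.5% higher and 9.32% lower over all tested genes stand beside this count and those of all lists below in the same comparison, and the 4.09% that passed in either direction beside all list counts in Gpr124ΔC/ΔC against WT. At an unadjusted p under 0.05, 1 was higher and 2 were lower, and DESeq2 passed 1 in each direction. For counts at an unadjusted p, here and elsewhere, no share over all tested genes is given. The one that fell in edgeR was Eif2b3, a subunit of the exchange factor eIF2B, at -0.27 (standard error 0.09, adjusted p = 0.0452, edgeR), a call that was lost in 16 of 21 alternatives (adjusted p up to 0.689). The 4 kinases lay between -0.15 for Eif2ak4, which senses uncharged tRNA, and 0.27 for Eif2ak3, which senses unfolded proteins. Ppp1r15a, the stress-induced phosphatase subunit that ATF4 and CHOP raise, was at 113 TPM against 78.3 TPM in WT, with a log2 fold change of 0.49 that did not pass (adjusted p = 0.055, edgeR). Of 6 bZIP partners 0 passed in edgeR and in DESeq2 and 1 of 5 in limma on log2(TPM + 1), while 2 had an unadjusted p under 0.05 in edgeR, both higher. For Cebpg, whose product dimerises with ATF4, the log2 fold change was 0.51 with an adjusted p of 0.0758. In Gpr124ΔC/ΔC 0 genes of either list passed in edgeR, 1 of each list had an unadjusted p under 0.05, and DESeq2 passed 1 bZIP partner.

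Enzymes of serine, one-carbon and proline metabolism, many of them known ATF4 targets, were a further group with rises beside Phgdh. Of 12 genes, 6 rose and 1 fell in Gpr124-/- against WT, with a median log2 fold change of 0.35. The count of 6 came down to 3 without Gpr124-/- embryo ME5, and to 4 to 6 without any other single library. The largest rise was in Aldh1l2, a mitochondrial folate enzyme, from a mean of 0.368 to 1.08 TPM (log2 fold change 1.51, standard error 0.35, adjusted p = 0.00812, edgeR). Mthfd2, the mitochondrial folate enzyme of one-carbon supply, rose from 6.02 to 12.1 TPM (0.98, standard error 0.15, adjusted p = 0.000454, edgeR), and Pycr1, the last enzyme of proline synthesis, from 3.41 to 6.05 TPM (0.80, standard error 0.23, adjusted p = 0.0276, edgeR), though Pycr1 lost its call in 6 of 21 alternatives (adjusted p up to 0.497). Shmt1, the cytosolic serine hydroxymethyltransferase, fell in Gpr124-/- (-0.82, adjusted p = 0.000473) and in Gpr124ΔC/ΔC (-0.65, adjusted p = 0.00931). Psph, the last enzyme of serine synthesis, was at -0.28 and did not pass (adjusted p = 0.189, edgeR), so of the 3 serine synthesis enzymes Phgdh alone passed. In Gpr124ΔC/ΔC, Got1, an aspartate aminotransferase, was the gene of this list that rose (0.55, adjusted p = 0.0488, edgeR), but the call was lost in 15 of 21 alternatives (adjusted p up to 0.138), and with any single WT or Gpr124ΔC/ΔC library left out. With the label letter as a term 0 of the 12 passed in Gpr124-/-, while the median log2 fold change was still 0.35. Without both libraries high in Gm23935 there were 4 higher and 1 lower. In limma on log2(TPM + 1) 3 of 11 tested rose and 1 fell.

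Amino acid carriers went mostly the opposite way. Of 9 carriers tested, 5 fell and 2 rose in Gpr124-/- against WT, with a median log2 fold change of -1.46. Slc1a4, a carrier of serine and alanine, fell from a mean of 1008 TPM to 126 TPM (-3.05, standard error 0.24, adjusted p = 2.03e-06, edgeR), and Slc7a1, a carrier of arginine and lysine, from 473 to 74.9 TPM (-2.72, standard error 0.21, adjusted p = 1.85e-06, edgeR). Slc38a2, a carrier of glutamine and other neutral amino acids, and Slc3a2, the heavy chain of several exchangers, fell by 1.65 and 1.58 on the log2 scale. Slc1a5, a glutamine carrier, rose from 33.4 to 67.1 TPM (0.96, adjusted p = 0.00281, edgeR). In Gpr124ΔC/ΔC, Slc1a4 (-1.03, adjusted p = 0.0181), Slc7a1 (-0.98, adjusted p = 0.0116) and Slc38a2 (-0.67, adjusted p = 0.045, edgeR) fell while none of the 10 stress response genes passed. The falls of Slc1a4 and Slc7a1 in Gpr124-/- stayed past the threshold with the letter term (-2.57 and -2.12), whereas the rise of Slc1a5 did not (adjusted p = 0.0509, edgeR). The log2 fold change of Slc1a5 lay between 0.82 and 1.07 in all 21 alternatives, that fit included. With the letter term 4 of the 9 carriers fell and 1 rose. In Gpr124ΔC/ΔC the count of carriers that passed depended on the fit, as did the share of all tested genes that passed in either direction. With the letter term 5 of 9 carriers were lower and 1 higher (share 5.9%), and in DESeq2 4 of 10 lower and 1 higher (5.63%). In limma on log2(TPM + 1) 1 of 8 was lower (2.79%). Without both libraries high in Gm23935 0 passed (2.76%), with 5 at an unadjusted p under 0.05. The call of Slc38a2 there was lost in 15 of 21 alternatives, that of Slc1a4 in 5 and that of Slc7a1 in 1.

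**Figure D3:**
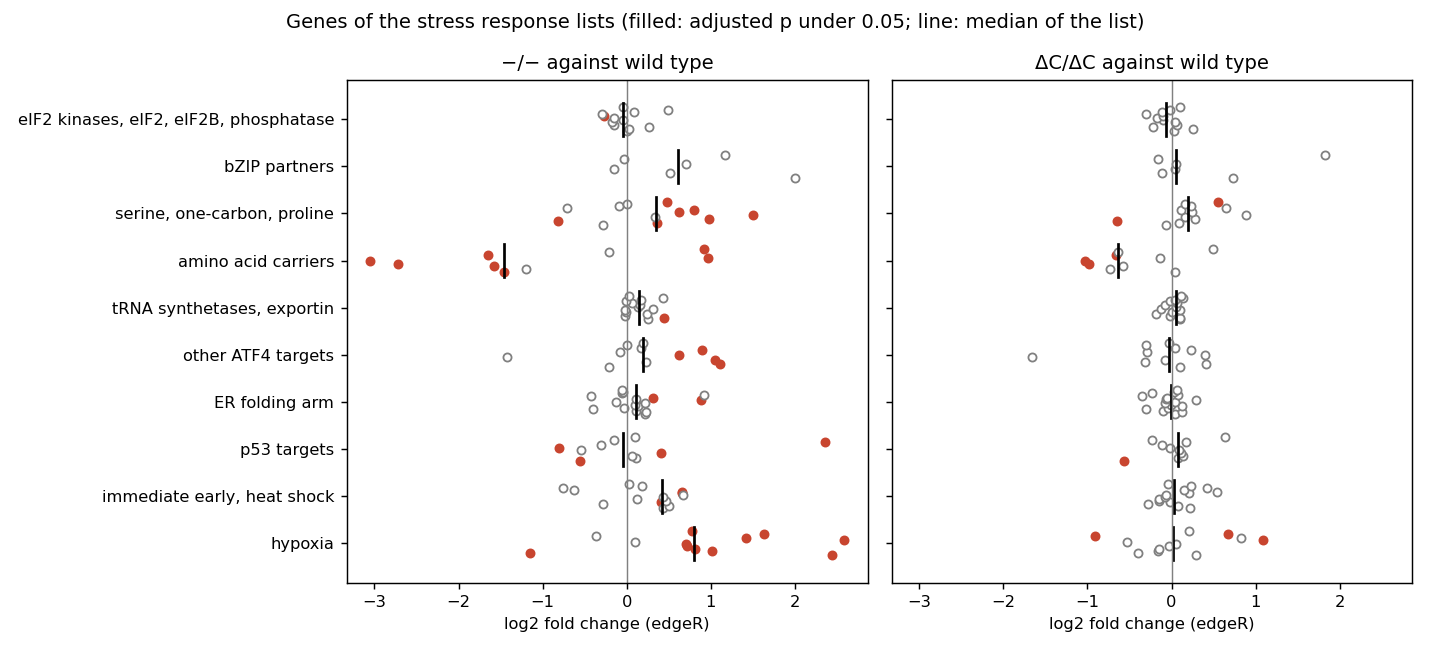
Log2 fold change from edgeR (horizontal axes) of the tested genes of 10 lists (vertical axis) in Gpr124-/- against WT (left) and Gpr124ΔC/ΔC against WT (right), with filled points for genes at an adjusted p under 0.05 and a vertical line at each list's median. The carriers lie mostly to the left in both panels and the serine, one-carbon and proline enzymes mostly to the right in both (8 of 12 above 0 in Gpr124-/- and 10 of 12 in Gpr124ΔC/ΔC), with 6 and 1 of them past the threshold as higher.

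Other known target groups of ATF4 followed. Of 14 genes for aminoacyl-tRNA synthetases and the tRNA exportin, Cars, the cysteinyl-tRNA synthetase, alone passed (0.44, adjusted p = 0.0267, edgeR), with a median of 0.14, and without both libraries high in Gm23935 0 passed, with 3 at an unadjusted p under 0.05. The call of Cars was lost in 7 of 21 alternatives. Of 11 further ATF4 or CHOP targets tested, 4 rose and 0 fell in Gpr124-/-, but only 1 rose without WT embryo LE6 or Gpr124-/- embryo ME1 and 2 without JE1, JE6 or ME5. They were Vldlr, a lipoprotein receptor (1.10, adjusted p = 0.0307), Bbc3, the cell death gene PUMA (1.05, adjusted p = 0.0323), Eif4ebp1, a translation repressor (0.90, adjusted p = 5.86e-05), and Tnfrsf10b, a death receptor (0.62, adjusted p = 0.0281, edgeR). Eif4ebp1 and Bbc3 were also higher than in Gpr124ΔC/ΔC, by 0.67 (adjusted p = 0.00222) and 1.13 (adjusted p = 0.0434, edgeR), the latter lost in 11 of 21 alternatives (adjusted p up to 0.538). Against WT, Vldlr lost its call in 7 of 18 alternatives, Bbc3 in 6 of 21 and Tnfrsf10b in 5 of 21. Fgf21 is listed at 0 in Gpr124-/- and WT, and Gdf15 had too few reads to be tested. With the letter term 0 of these targets rose and 1 fell. In Gpr124ΔC/ΔC 0 genes of both groups passed in edgeR, and DESeq2 passed 1 of the further targets. At an unadjusted p under 0.05 in edgeR were 5 of the further targets (2 higher and 3 lower) and 0 of the tRNA genes.

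The endoplasmic reticulum arm, known to run through IRE1 and ATF6, was measured for comparison. Of 17 chaperones and sensors tested, 2 rose in Gpr124-/- against WT and 0 fell, with a median of 0.11, a share near that over all tested genes. Sdf2l1 rose by 0.88 (adjusted p = 0.00023) and Manf by 0.32 (adjusted p = 0.0091, edgeR), whereas Hspa5, the chaperone BiP that is the usual marker of this arm, was at 0.21 on the log2 scale (adjusted p = 0.226, edgeR). With the letter term neither Sdf2l1 (adjusted p = 0.258) nor Manf (0.393, edgeR) passed, and 1 of the 17 rose. Over all 21 alternatives, that fit included, the log2 fold change lay between 0.50 and 0.96 for Sdf2l1 and between 0.28 and 0.36 for Manf. Of 10 p53 targets, 2 rose and 2 fell in Gpr124-/- (1 and 0 with the letter term), and the largest rise was in Phlda3, an inhibitor of AKT (2.35, adjusted p = 0.000203, edgeR). Cdkn1a, the cell cycle inhibitor p21, fell in both mutants (-0.55 in Gpr124-/- and -0.57 in Gpr124ΔC/ΔC, adjusted p = 0.00177 and 0.00546). Immediate early and heat shock genes, which can rise during cell sorting, included 3 of 14 that rose in Gpr124-/- and 0 in Gpr124ΔC/ΔC, with Nr4a1 at 0.66 (adjusted p = 0.0268), Zfp36 at 0.65 (adjusted p = 0.0323) and Junb at 0.41 (adjusted p = 0.00909, edgeR). Of the 14 genes, 1 rose with the letter term, without both libraries high in Gm23935, and without any one of JE6, KE8, ME4 and ME5. Zfp36 lost its call in 10 of 21 alternatives, Nr4a1 in 6 and Junb in 1. Their part in the rises of Atf4 and Ddit3 was not tested. Of 12 hypoxia genes 9 rose and 1 fell in Gpr124-/-, led by Egln3 (2.58, adjusted p = 4.56e-06) and Vegfa (2.44, adjusted p = 0.000376, edgeR), with a median of 0.80, and with the letter term 3 rose and 1 fell. In Gpr124ΔC/ΔC 2 of these rose, Egln3 (1.09) and Ndrg1 (0.67), and Adm fell (-0.92), and without both libraries high in Gm23935 0 of them passed (5 at an unadjusted p under 0.05). Ndrg1 lost its call there in 9 of 21 alternatives, and Egln3 and Adm in 1 each.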

How the data were processed

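CD31+ endothelial cells of E15.5 forebrains were profiled in 12 libraries (ultra-low input SMART-Seq v4 chemistry, poly(A) selection, paired-end Illumina sequencing). The authors deposited unnormalized read counts for 49315 genes and TPM values, which equaled those recomputed from counts and lengths to within 0.005% for values above 1. Submitters' processing notes name bcl2fastq 2.17 and the mm10 build. The aligner, counting program and strand setting are not given in the sources used here. Symbols were taken from GENCODE vM21, which held 48970 of the gene identifiers, while 345 were not found.

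Tests on counts used edgeR 4.0.16 in R 4.3.3 (filterByExpr with a minimum count of 10, TMM factors, glmQLFit and glmQLFTest with genotype as term) for 16637 genes. P-values were adjusted by Benjamini-Hochberg over all of them. Libraries come from separate embryos, and precision is limited by 4 embryos per genotype and, for genes of few reads, by counting error. The models were tested on simulated data. Named genes were the 10 members, up to 4 genes with the largest change per other list and comparison among those that passed, genes named for their role or to complete a small count (Tnfrsf10b, Psph, Hspa5, Ppp1r15a, Cebpg and the kinases among them), and the 10 genes most like the members. Members and lists were chosen with earlier results of these data known.

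Alternatives were upper-quartile factors, no filter, a mean of at least 50 counts, the label letter as a term, DESeq2 1.42.0, only the compared genotypes, limma 3.58.1 (log2 TPM with a pseudocount of 1 or 0.1, mean TPM at least 1), an absolute log2 fold change above 1, and each library left out. TPM without Gm23935 and fits without both libraries high in it were added after seeing the data. Tables and plots used pandas 2.3.3, numpy 2.4.6 and matplotlib 3.10.9 under Python 3.11.15. Protein sequences were not used here.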

Additional observations from a re-analysis of the deposited data

Results flagged for a closer look

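For 3 of the 10 genes the effects of the mutants against WT differed from each other, tested as Gpr124-/- against Gpr124ΔC/ΔC with edgeR's quasi-likelihood test. The log2 difference was 0.58 for Atf4 (adjusted p = 0.0032), 1.05 for Ddit3 (adjusted p = 0.0212) and 0.56 for Asns (adjusted p = 0.0249). No letter holds both mutants, so each difference is also one between letters. With the letter term, which links the mutants only through WT, the differences were 0.25, 0.067 and 0.099. For Atf4 and Ddit3 the difference came with a log2 fold change near 0 in Gpr124ΔC/ΔC against WT (0.04 and 0.03), and for Asns with values of opposite sign in the mutants (0.24 and -0.32), neither of which passed alone.

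A single library stood apart from the other 3 of its genotype for 2 genes. For Phgdh the WT embryo KE8, at 18.6 TPM, lay apart from the others (gap over range 0.875), and for Sesn2 the Gpr124-/- embryo ME5, at 16.0 TPM, did (0.884), both above Dixon's critical value for 4 values. Among the 30 groups of 4 examined, chance gives about 1 such group in 20. Without KE8 the rise of Phgdh remained past the threshold, which tests it little, since KE8 was the highest WT embryo. KE8 is also the only WT embryo that shares a letter with a Gpr124-/- embryo. Within that letter, K, the ratio of Gpr124-/- to WT for Phgdh was 1.18.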

How the results depend on the processing

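Of 624 values of the 10 genes under alternatives, 585 kept direction and side of the threshold, 22 lost significance, 4 gained it and 13 changed sign. Of the other named genes, 999 of 1189 kept both and 190 lost significance. With the label letter as a term, 0 of the 10 genes passed in Gpr124-/- against WT (5 otherwise) and 0 between the mutants (3 otherwise). In that fit Gpr124-/- against WT rests within letters on 1 pair of embryos. No letter holds both mutants, so their comparison rests on no such pair and is linked only through WT. Signs turned for Asns (-0.16) in Gpr124-/- against WT and for Psat1 (0.087), Phgdh (-0.34) and Nupr1 (-1.14) between the mutants. An absolute log2 fold change above 1 left 2 genes against WT and 1 between the mutants. In Gpr124ΔC/ΔC against WT, DESeq2 passed 1 gene and leaving out single libraries 0 to 1 (Atf3, without WT embryo LE6). Between the mutants, the fit of only the compared genotypes, both limma fits and the fit without both libraries high in Gm23935 passed 1 gene each, and leaving out single libraries 1 to 3, with 1 without LE5. Leaving out single libraries also gave ranges of log2 fold change across 0 for Ddit3 (-0.011 to 0.077) and Chac1 (-0.24 to 0.13) in Gpr124ΔC/ΔC against WT, and for Psat1 (-0.17 to 0.018) and Sesn2 (-0.20 to 0.23) between the mutants, where Sesn2 was -0.080 without both libraries high in Gm23935. None of these 4 differences had passed. Trib3 and Nupr1 had too few counts for the filter at a mean of 50, which gave them no value. The labels give no replicate numbers, so the label letter was the only block that could be fitted. Depth limits Nupr1 and Trib3 most.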

Other observations

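The 10 tested genes outside the list whose log2 CPM followed the mean standardized level of the 10 members most closely over the 12 libraries were Pgam1 (Pearson r = 0.923), Fanca (0.919), Psmc4 (0.913), Tor4a (0.912), Dkk2 (0.909), Golga2 (0.908), Cnr2 (0.908), Arsa (0.904), Ctsb (0.903) and 1700017B05Rik (0.903). With each genotype centred on its own mean, their r lay between 0.78 (1700017B05Rik) and 0.86 (Arsa). The libraries share depth, the label letter and admixed cells with the members, and these genes were ranked by the same values, so the correlations are a description with no test. The mean standardized level of the members ranged from -0.50 to -0.11 in WT, from -0.58 to 0.30 in Gpr124ΔC/ΔC and from 0.10 to 1.33 in Gpr124-/-.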
